A study of Drosophila melanogaster with 8 samples.

Results

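Polyadenylated RNA of whole Drosophila melanogaster pupae was sequenced in 8 libraries, and the 4 libraries made from pupae that developed at 3 g are described here as a set of replicates. The labels name these 4 libraries as replicates 1 to 4 of the 3 g treatment, and they are called pools 1 to 4 below. Each was made from a pool of 4 pupae of the wild-type strain Canton-S at the early pupal stage P6, kept at 25 °C. What follows concerns how far these 4 pools lay apart, gene by gene, and which genes lay apart in the same pools. Whether the pupae were male or female is not in the labels, and nothing beyond the pooling says whether the pools came from separate cultures. A gene's level is its TPM, the usual share of transcripts in a library corrected for transcript length. The table lists 13918 genes, of which 213 were at 0 in all 4 pools and 1733 others had a mean below 1 TPM. The remaining 11972 genes are called measured genes.

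At the stages around pupariation, a pulse of the steroid hormone ecdysone sets off the breakdown of larval tissues and the growth of adult ones. Epidermal cells then deposit cuticle proteins in a fixed order, so the cuticle genes active at one hour differ from those active a few hours later. In male larvae and pupae the testis already holds many spermatocytes, which transcribe a large set of genes used by few other cells, among them copies of general genes kept for the germ line. Antimicrobial peptides are secreted mainly by the fat body and by surface epithelia when the Toll or Imd pathway is active.

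Between 13313 and 13388 genes were above 0 in each pool. Values of TPM keep no record of the number of reads, so the depth behind each value is unknown. Marker genes of several tissues were present in every pool: elav, an RNA-binding protein of neurons, lay between 22.4 and 33.0 TPM, Mhc, the muscle myosin heavy chain, between 51.6 and 117 TPM, and Rfabg, the lipoprotein of the fat body, between 690.2 and 799.7 TPM. Hml, a blood cell marker, lay between 0.71 and 1.73 TPM. Pool 2 stood apart from the other pools. Pearson's correlation of log2(TPM + 0.5) across genes, which are not independent replicates, was 0.883, 0.874 and 0.873 between pool 2 and pools 1, 3 and 4. It was 0.939 between pools 1 and 3, 0.937 between pools 1 and 4 and 0.900 between pools 3 and 4. The number of genes at least 4-fold apart was 1516, 1529 and 1664 for the pairs with pool 2, and 316, 274 and 468 for the pairs 1 and 3, 1 and 4, and 3 and 4. The first principal component took 55.8% of the variance and set pool 2 against the other 3, and the second took 29.4% and set pool 3 against pool 4.

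For each gene the range was taken as the highest minus the lowest log2(TPM + 0.5) of the 4 pools, a scale that understates the spread of genes near 0. The median range over measured genes was 0.62, with quartiles of 0.36 and 1.49. A range of at least 2-fold was found in 4044 genes (33.8% of measured genes). A range of at least 4-fold was found in 2216 genes (18.5%), at least 16-fold in 199 (1.66%) and at least 64-fold in 53 (0.443%). Wide ranges were not limited to weakly expressed genes: the share with a 4-fold range was 13.8% of 1761 genes with a mean of 1 to 5 TPM, 17.1% from 5 to 20 TPM, 21.0% from 20 to 100 TPM and 19.2% of 1469 genes at 100 TPM or more. With pool 2 left out, 632 of the measured genes (5.28%) kept a range of at least 4-fold over pools 1, 3 and 4.

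**Figure D1:**
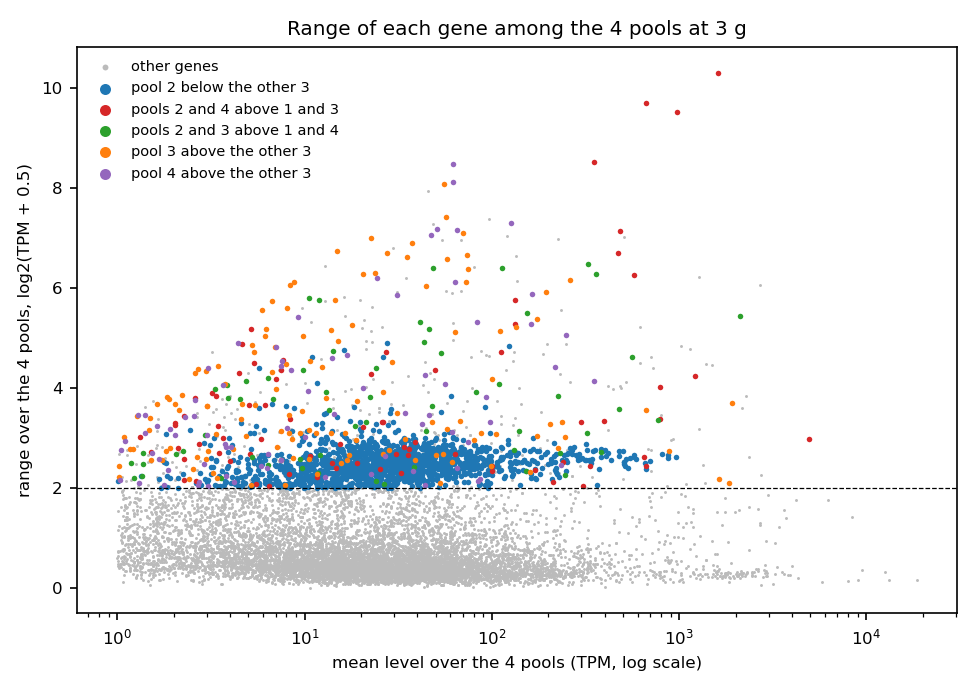
Each point is 1 of the 11972 measured genes, with its mean level over the 4 pools in TPM on the x axis (log scale) and its range over the pools in log2(TPM + 0.5) on the y axis. The dashed line marks a 4-fold range, and colours mark genes above it by the pools that lay high or low. Genes low in pool 2 (blue) form a dense band just above the line at all levels, while the widest ranges, up to 10.31, belong to genes high in pools 2 and 4 (red).

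Each of the 2216 genes was placed by its largest gap, that is, by which pools lay above the widest step in its 4 ordered values. Of the 14 ways in which 4 pools can be split, 1 held most genes: in 1523 genes (68.7%) pool 2 lay below the other 3. Pool 3 lay above the others in 132 genes and below them in 108, pool 4 above in 79 and below in 90, and pool 1 above in 15 and below in 70. Pool 2 lay above the others in 24 genes. Pools 2 and 4 lay together above pools 1 and 3 in 77 genes, pools 2 and 3 above pools 1 and 4 in 60, and the remaining 4 splits held 15, 10, 11 and 2 genes. Among the 199 genes with a range of at least 16-fold the order differed: 47 had pool 3 high, 28 pool 4 high, 27 pool 4 low, 22 pools 2 and 4 high, 20 pools 2 and 3 high and 7 pool 2 low. The genes low in pool 2 were therefore many and of moderate range, and the genes of other patterns fewer and of wider range.

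**Figure D2:**
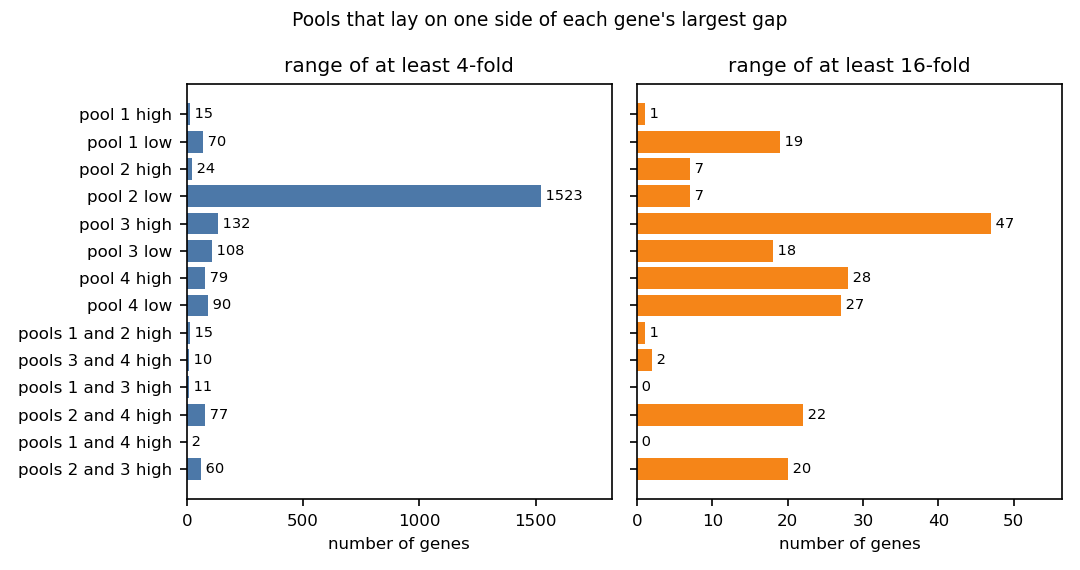
Number of genes (x axis) in each of the 14 splits of the 4 pools by the largest gap, for ranges of at least 4-fold (left) and at least 16-fold (right). The left panel is dominated by the 1523 genes low in pool 2, and the right panel by genes high in pool 3 (47), high in pool 4 (28) or low in pool 4 (27).

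A pool was called apart in a gene when it lay at least 2-fold beyond the nearest other pool, and by more than the whole range of the other 3. Pool 2 lay apart on the low side in 1964 genes, 16.4% of measured genes, and on the high side in 33 (0.276%). Pool 1 lay apart on the high side in 33 genes (0.276%) and on the low side in 79 (0.66%). Pool 3 did so in 125 (1.04%) and 143 (1.19%) genes, and pool 4 in 93 (0.777%) and 100 (0.835%) genes. Without any such margin, pool 1 held the lowest value in 9.81% of genes, pool 2 in 39.1%, pool 3 in 20.7% and pool 4 in 30.4%. The highest value lay in pool 1 in 42.5% of genes, in pool 2 in 14.8%, in pool 3 in 21.3% and in pool 4 in 21.4%. These shares move with the scaling: when the pools were rescaled by the median of ratios between them, pool 1 shifted by -0.15 on the log2 scale, pool 2 by 0.08, pool 3 by -0.06 and pool 4 by less than 0.01. Pool 1 then held the highest value in 2332 genes in place of 5083.

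The 1964 genes apart on the low side in pool 2 mostly lay at similar shares of the other pools. Pool 2 lay at a median of 19.1% of the mean of the other 3 pools (quartiles 16.4% and 23.8%), and 1700 of these genes (86.6%) lay between 10% and 30%. The bound for the set shuts out higher shares, and the highest was 48.3%, so the choice limits this span from above. Their median range over pools 1, 3 and 4 was 0.22 on the log2 scale, beside 0.36 over all measured genes. The set was chosen to have a range over these 3 pools smaller than the gap to pool 2, so nothing is read from the difference. Together they made up 11.0%, 2.08%, 10.3% and 10.8% of all TPM in pools 1 to 4. Because TPM is a share, the TPM left to all other genes in pool 2 was 9.68% higher than the mean of the other pools. Just inside the bound for this set lay CG5964, at 3.40, 1.37, 3.24 and 4.54 TPM in pools 1 to 4, and just outside it lay CG6220, at 5.33, 2.12, 4.72 and 7.01 TPM.

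Genes of the male germ line fell in this set. Of 69 male germline genes in the table, 68 were measured, and pool 2 held the lowest value of all 68 and lay apart on the low side in 63, beside 39.1% and 16.4% of measured genes. A range of at least 4-fold was found in 52 of the 68 (76.5% against 18.5% of measured genes), and the median range was 2.40 against 0.62. The summed level was 12970, 2283, 12081 and 12356 TPM in pools 1 to 4. With pool 2 left out, 0 of the 68 kept a 4-fold range. After median-of-ratios or quantile scaling pool 2 was lowest in 67 of the 68. In whole pupae, fewer germ cells and less RNA per germ cell cannot be told apart.

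Genes were next ordered by their role in sperm development, assigned after the values had been seen. The 62 measured genes taken were 59 of the 68, given by role or, for scpr genes, without one, and 3 from outside that list, bam, bgcn and Rbp4. The other 9 of the 68 were not placed. bam, which ends the divisions of spermatogonia, was at 0.98, 1.10, 0.73 and 1.77 TPM in pools 1 to 4, and pool 2 lay among the others. bgcn, its partner, was at 8.30, 1.79, 7.60 and 9.19 TPM, with pool 2 low. The 8 meiotic arrest genes, which switch on the spermatocyte programme, were all lowest in pool 2, at a median of 36.3% of the other pools (27.5% to 45.3%). Among them aly was at 3.24, 1.15, 3.21 and 3.40 TPM, and sa, a testis form of a general transcription factor subunit, at 9.56, 2.80, 7.91 and 13.1 TPM. Pool 2 was the lowest in both, and the other 3 pools lay closer together in aly than in sa.

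The roles given next had lower median shares in pool 2 than the meiotic arrest genes. The shares did not fall steadily with stage. bgcn, which acts early, stood at 21.4% of the other pools, and the 3 genes of meiotic division and its translation at a median of 24.1%. twe, the Cdc25 phosphatase of meiosis, was at 27.8, 6.62, 25.7 and 28.8 TPM, and bol, an RNA-binding protein that allows its translation, at 231, 49.4, 192 and 204 TPM. betaTub85D, the beta tubulin of the testis, was at 444, 77.4, 402 and 424 TPM. dj, a protein of the sperm tail, was at 332, 52.0, 280.3 and 310.2 TPM. In each of these genes pool 2 lay below the other 3 pools, which stayed close to each other. The 21 genes for the sperm tail and its mitochondria were at a median of 17.0% of the other pools (14.4% to 22.1%). The 5 sperm chromatin genes were at a median of 20.7%, and the 6 testis proteasome genes at 25.7%. Mst77F, a protein that packs sperm DNA, was at 476, 90.7, 447 and 475 TPM.

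The 12 genes called cup and comet genes, whose transcripts appear after meiosis and collect at the tail ends of spermatids, were at a median of 17.6% of the other pools, and ranged from 8.25% to 24.9%. swif was at 42.9, 3.11, 31.8 and 38.3 TPM and sunz at 36.99, 3.73, 29.3 and 30.01 TPM, with pool 2 far below the rest. The lowest shares among the listed genes, 3.36% to 7.14%, belonged to the scpr genes, to which no role is assigned here. scpr-C was at 51.0, 1.22, 25.5 and 32.5 TPM and scpr-A at 14.5, 0.76, 10.2 and 21.3 TPM. Pool 2 lay far below the other pools in both, and pools 1, 3 and 4 differed more among themselves than they did in the sperm tail genes named above. Of the dynein heavy chains encoded on the Y chromosome, kl-5 was at 2.14, 0.28, 1.69 and 2.05 TPM and kl-3 at 2.00, 0.35, 1.94 and 2.1 TPM. Over all roles the median share in pool 2 ran from 58.1% for the 2 spermatogonial genes to 15.8% for these 2 dyneins, and was 4.95% for the 3 scpr genes. These are medians over few genes, with no test. The 58.1% is the middle of bam, at 94.8%, and bgcn, at 21.4%, and bam averaged only 1.145 TPM.

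**Figure D3:**
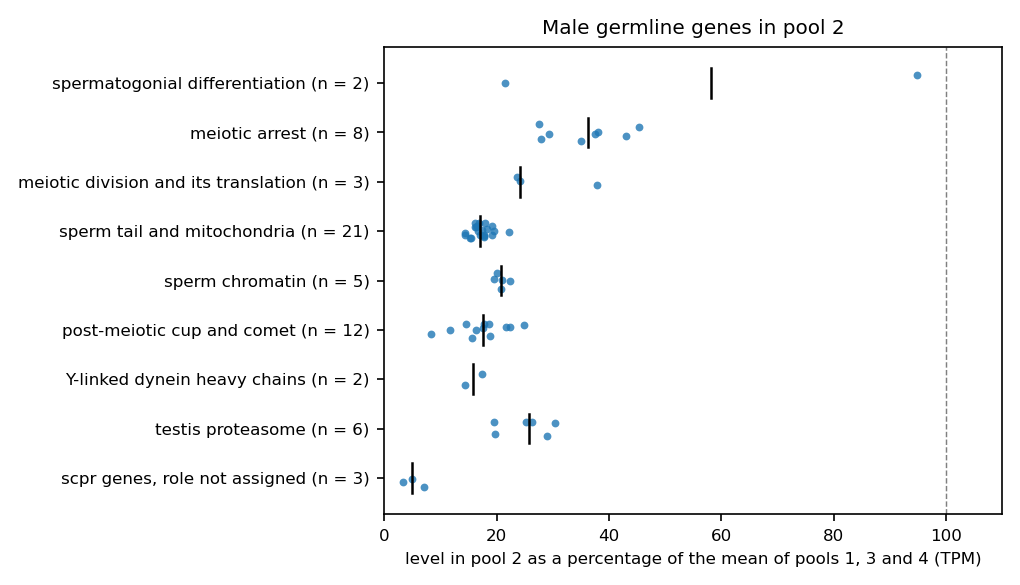
Level in pool 2 of 62 measured genes of sperm development, as a percentage of the mean over pools 1, 3 and 4 (x axis), by role (y axis). They are 59 of the 68 male germline genes plus bam, bgcn and Rbp4, with the number of genes in brackets. Points are genes and black bars medians. Medians are 36.3% for meiotic arrest, 17.0% for the sperm tail and mitochondria and 17.6% for cup and comet genes, and bam alone lies near the dashed line at 100%.

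In selected pairs of a general gene and a copy that serves the germ line, the copy mostly lay low in pool 2 and the general gene mostly did not. In 20 pairs, chosen after the values had been seen, the copy stood in pool 2 at a median of 21.5% of the other pools (12.2% to 63.1%) and the general gene at a median of 112% (51.7% to 123%). Because of that choice the contrast describes these pairs only. Hsp60B, a mitochondrial chaperonin copy, was at 166, 22.1, 152 and 148 TPM in pools 1 to 4, beside 163, 164, 128 and 159 TPM of Hsp60. Cyt-c-d, a second cytochrome c, was at 169.8, 30.1, 172 and 165 TPM, beside 104, 112, 105 and 101 TPM of Cyt-c-p. In both of these pairs the general gene held its level in pool 2 and the copy did not. RpS28a, a copy of a ribosomal protein gene, was at 7.43, 0.95, 7.14 and 8.75 TPM, beside 2929, 3163, 2985 and 2664 TPM of RpS28b. The widest departures were RpS5b among the copies, at 63.1%, and stg among the general genes, at 90.9, 37.7, 93.7 and 34.0 TPM, where pools 2 and 4 were both low.

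Genes low in pool 2 were also found in lists named for other tissues and functions. Of 45 tracheal and Malpighian tubule genes 7 had a 4-fold range (15.6% against 18.5% of measured genes), and all 7 were low in pool 2, as were 68.7% of all genes with such a range. They include copies of proton pump subunits: Vha36-2 was at 28.4, 3.74, 27.01 and 28.2 TPM and Vha68-3 at 62.1, 10.7, 56.8 and 55.1 TPM. Of 15 heat shock and chaperone genes 4 had a 4-fold range (26.7% against 18.5%), namely Hsp60B, Hsp60C, Hsp60D and Hsc70-2, and all 4 were low in pool 2. Hsc70-2 was at 99.1, 18.2, 92.5 and 93.5 TPM. Of 16 glycolysis genes 2 had a 4-fold range (12.5% against 18.5%), and they differed in opposite directions in pool 2. ImpL3, lactate dehydrogenase, was at 52.2, 259, 122 and 80.2 TPM, with pool 2 high. Pglym87 was at 79.3, 12.8, 75.7 and 73.6 TPM, and the general gene Pglym78 at 96.1, 114, 76.7 and 107 TPM. With pool 2 left out, 0 members of these 3 lists kept a 4-fold range.

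Genes of the germ line at large moved less. Of 26 measured germ cell and piRNA genes 20 were lowest in pool 2, against 39.1% of all genes, and 2 had a 4-fold range (7.69% against 18.5%): 0 with pool 2 left out and 1 with pool 4 left out. Pool 2 was the lowest in 18 after median-of-ratios rescaling and in 9 after quantile normalization. The genes with a 4-fold range were bgcn and orb, a translational regulator of germ cells, at 88.7, 13.5, 67.5 and 86.3 TPM. vas, the germ cell helicase Vasa, was at 3.64, 1.86, 3.11 and 2.62 TPM, a range of less than 2-fold. Pool 2 was the lowest of both, by a wide margin in orb and a narrow one in vas.

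Genes of the sex determination pathway are given beside these values, since the sex of the pupae in each pool is not given. Sxl, the switch gene that is active in females, was at 94.8, 117, 92.9 and 75.1 TPM. tra, its target in the female branch, was at 24.4, 46.7, 27.5 and 19.5 TPM. msl-2, the male-limiting subunit of the dosage compensation complex, was at 13.8, 7.89, 14.7 and 13.1 TPM. Pool 2 was the highest in Sxl and tra and the lowest in msl-2. Of the 17 measured genes for sex determination and dosage compensation, pool 2 was the highest in 2 and the lowest in 5. Among all measured genes these shares were 14.8% and 39.1%. Pool 2 was the highest in 5 of the 17 after median-of-ratios rescaling and in 11 after quantile normalization. fru, a gene with sex-specific transcripts in the nervous system, was at 99.7, 39.99, 11.6 and 51.0 TPM, with pool 1 high and pool 3 low. The part of the sex or the stage of the pupae in the low values of pool 2 was not tested.

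What the 1964 genes share beyond their level was counted. Names made of CG or CR and a number were carried by 1555 of them (79.2%) against 52.0% of measured genes. Such a name does not show that a gene lacks a described function, since CG7045 and CG7046 were among the sperm chromatin genes above. They lay on all chromosomes in roughly the proportions of all genes, with 14.3% on X against 16.0% of measured genes and 22.6% on chromosome arm 2L against 18.7%. The small chromosomes differed: 11 of 14 measured genes of Y and 2 of 76 of chromosome 4 were in the set. Members also lay side by side. Of 1951 members placed on the RefSeq gene table, 919 (47.1%) had a member as an immediate neighbour, beside 19.9% of other genes. The longest runs of neighbours held 11, 10, 10 and 10 genes. A run of 10 on chromosome arm 2R held the cup and comet genes whip, cola, swif and boly, and a run of 10 on 3R held sunz. Runs of related genes, such as Mst84Da to Mst84Dd on 3R, add to these counts.

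The other spread was sorted by 32 lists of genes with a known tissue or function, which between them held 1067 measured genes. The score of a list in a pool is the mean over its measured members of their log2 deviation from their own mean over the pools. Scores spread most widely, from the lowest to the highest pool, for digestive enzymes (2.60), male germline genes (2.26), Osiris genes (2.23), antimicrobial peptides (2.09) and cuticle proteins outside the Cpr family (1.88). They spread least for cytochrome P450 genes (0.04) and the cytosolic ribosome (0.12). A small spread of scores can hide members that differ in opposite directions: the median range was 1.12 for the P450 genes and 0.28 for the ribosome, against 0.62 for all measured genes. Near-identical gene copies, such as Lcp65Ag1 to Lcp65Ag3, Cpr65Ax1 and Cpr65Ax2, CecA1 and CecA2, Jon99Cii and Jon99Ciii, AttA and AttB and the histone copies, can share reads, so the single members of such groups are uncertain. The same holds for genes that overlap on opposite strands, since use of the strand is not stated.

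**Figure D4:**
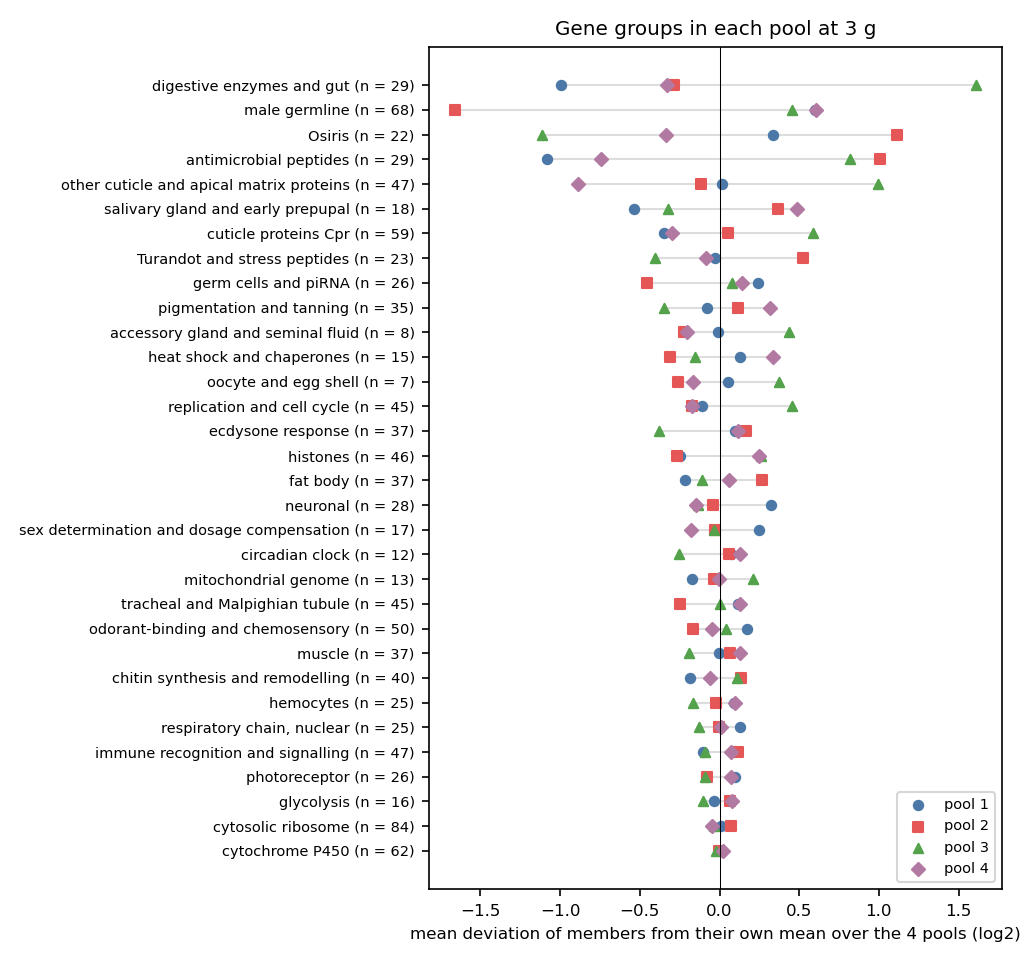
Score of each of the 32 gene lists (y axis, with the number of measured members) in pools 1 to 4, as the mean log2 deviation of members from their own mean over the 4 pools (x axis). Symbols are pools and grey lines span the lowest to the highest pool. Male germline genes are low in pool 2 (-1.66), digestive enzymes high in pool 3 (1.61), Osiris genes high in pool 2 (1.12) and low in pool 3 (-1.11), and other cuticle proteins high in pool 3 (0.99) and low in pool 4 (-0.89).

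Osiris genes, a clustered insect family of membrane proteins active in epithelia that secrete cuticle, were high in pool 2 and low in pool 3. Of 22 measured members 18 had a range of at least 4-fold (81.8% against 18.5% of measured genes), and the median range was 2.90 against 0.62. With pool 3 left out, 11 kept a 4-fold range. Pool 2 held the highest value in 14 of 22, against 14.8% of measured genes, and the lowest value lay in pool 4 in 10, in pool 3 in 9 and in pool 1 in 3. One block was nearly silent in pool 3. Osi18 was at 89.01, 101, 0.31 and 84.6 TPM in pools 1 to 4, Osi19 at 186, 224, 2.66 and 135 TPM, and Osi20 at 324, 355, 2.31 and 223 TPM. Pools 1, 2 and 4 lay within a narrow span in these 3 genes and pool 3 far below it.

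Osi6, the most abundant of those named here, was also low in pool 3, with 1813, 2248, 102 and 1829.7 TPM, as was Osi14, with 1156, 1124, 53.8 and 577 TPM. Other members moved the other way. Osi1 was at 8.85, 415, 445 and 67.8 TPM and Osi12 at 131, 1257, 1354 and 356 TPM, so that pools 2 and 3 were high and pools 1 and 4 low. Outside the family, CG12920, at 29.3, 30.2, 0.33 and 21.5 TPM, CG9411, at 268, 269, 9.90 and 205 TPM, and CG15887, at 97.5, 135, 4.57 and 114 TPM, were also low in pool 3 alone.

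Cuticle proteins outside the Cpr names, among them larval, pupal and Edg proteins, were highest in pool 3 and lowest in pool 4. Of 47 measured members 34 had a range of at least 4-fold (72.3% against 18.5%), with a median range of 2.83 against 0.62, and 20 kept it with pool 3 left out. In 14 of the 34 pool 3 lay above the rest and in 10 pool 4 below it. Pool 3 was the highest in 26 of 47, against 21.3% of measured genes, and pool 4 the lowest in 22, against 30.4%. Lcp65Ad, a larval cuticle protein, was at 2732, 1592, 6448 and 95.7 TPM. Edg78E, a cuticle protein of prepupae, was at 1168, 855, 3413 and 152 TPM, and Edg91 at 39.1, 39.5, 608 and 14.1 TPM. These genes had one order, with pool 3 at the top, pools 1 and 2 between and pool 4 at the bottom.

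Ccp84Ae, of a cuticle gene cluster, was at 20.7, 10.9, 151 and 0.11 TPM, and Lcp65Ag2 at 237, 206, 1570.1 and 11.6 TPM. Lcp2, a larval cuticle protein, was listed at 0 in pools 1 and 2 and stood at 34.5 TPM in pool 3 and 0.56 TPM in pool 4. Several unnamed genes followed the same order. CG13051 was at 58.8, 60.7, 359.6 and 2.22 TPM, CG13069 at 37.3, 44.3, 302 and 1.31 TPM, and CG13731 at 83.3, 34.9, 417 and 3.69 TPM. Pool 4 was the lowest and pool 3 the highest in these 3 genes, as in Ccp84Ae and Lcp65Ag2, while Lcp2 was lowest in pools 1 and 2.

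Genes of the Cpr family, chitin-binding proteins of the cuticle, were spread over more patterns. Of 59 measured members 32 had a range of at least 4-fold (54.2% against 18.5%), the median range was 2.27 against 0.62, and 21 kept it with pool 4 left out. Pool 3 was the highest in 26 members and pool 4 in 20, against 21.3% and 21.4% of measured genes. Cpr65Ax2 was at 3.08, 12.3, 212 and 0.74 TPM and Cpr78Cc at 121, 72.2, 839 and 11.2 TPM, with pool 3 high and pool 4 low. Cpr66Cb was at 34.2, 52.3, 35.5 and 742 TPM, with pool 4 high. Cpr73D was at 67.3, 18.9, 9.76 and 23.6 TPM, with pool 1 high. Members of the one family therefore peaked in different pools.

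Digestive enzymes had the widest spread of scores, and pool 3 was the high pool. Of 53 genes listed for them, 29 were measured, 18 had a range of at least 4-fold (62.1% against 18.5%), with a median range of 3.15 against 0.62, and 6 kept it with pool 3 left out. Pool 3 lay above the rest in 12 of the 18. Jon66Ci, a serine protease of the Jonah family of gut proteases, was at 0.31, 0.45, 219.8 and 0.44 TPM. Jon99Ciii was at 0.89, 1.94, 136 and 1.76 TPM and Jon25Biii at 0.81, 1.01, 80.0 and 0.53 TPM. All 3 were near 0 in pools 1, 2 and 4 and above 80 TPM in pool 3. Jon65Ai differed, at 1.51, 41.9, 59.9 and 123 TPM, with pool 1 low and pool 4 high. CG3916 was at 1.02, 0.70, 89.01 and 0.20 TPM, with the pool 3 pattern. The summed level of the list was 633, 1205, 2092 and 1201 TPM.

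The widest ranges of all belonged to genes that were high in pools 2 and 4 and close to 0 in pools 1 and 3. CG34244 was at 2.84, 2749, 2.43 and 3731 TPM, a mean of 1621 ± 1911 TPM (SD, n = 4) and a log2 range of 10.31. CG7924 was at 2.89, 1397, 2.86 and 2479.7 TPM, with a log2 range of 9.53, and CG7906 at 1.45, 1029.9, 1.53 and 1623 TPM, with a log2 range of 9.70. Over these genes the highest value in pools 1 and 3 was 2.89 TPM, and the lowest in pools 2 and 4 was 1029.9 TPM. PGRP-SB2, a peptidoglycan recognition protein, had the same pattern at 3.37, 276, 2.52 and 1114 TPM. CG32631, at 35.7, 567, 8.89 and 1326 TPM, and CG11816, at 24.4, 589.9, 11.5 and 1258 TPM, also followed it, with pool 1 above pool 3.

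A few genes tied to the timing of pupal development shared parts of this pattern, and most did not. Kr-h1, a transcription factor induced by juvenile hormone, was at 0.35, 5.52, 0.20 and 15.5 TPM, and br, an early ecdysone-response gene, at 51.4, 128, 46.8 and 115 TPM. Both were high in pools 2 and 4. Of 37 measured ecdysone-response genes 8 had a range of at least 4-fold (21.6% against 18.5%), with a median range of 0.79 against 0.62, and 2 kept it with pool 3 left out. In 5 of the 8 pool 3 lay below the rest, and in 1 pools 2 and 4 lay above pools 1 and 3. Pool 2 held the highest value in 6 of the 37 and pool 4 in 9, against 14.8% and 21.4% of measured genes. Hr46, a nuclear receptor of the prepupal period, was at 79.2, 73.2, 14.4 and 116 TPM, and Eip78C, another nuclear receptor induced by ecdysone, at 303, 151, 43.0 and 226 TPM. Cyp18a1, an enzyme that inactivates ecdysteroids, was at 84.0, 79.2, 11.0 and 21.3 TPM. Pool 3 was the lowest in these 3 genes, and pool 4 was low as well in Cyp18a1. EcR, the ecdysone receptor, was at 52.9, 47.9, 73.3 and 33.7 TPM, and its partner usp at 39.2, 42.9, 33.1 and 36.4 TPM, within little more than 2-fold. The part of a difference in age between pools in these values was not tested.

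Among the genes of the 71E late puff, which ecdysone induces in the prepupal salivary gland, 2 groups differed in opposite directions. Eig71Eh was at 393, 1288, 129 and 1352 TPM and Eig71Ei at 294, 1116, 206 and 1053 TPM, with pools 2 and 4 high. Eig71Ej was at 1163, 1754, 3605 and 833 TPM and Eig71Ek at 981, 1611, 3227 and 712 TPM, with pool 3 high. ImpL1, another ecdysone-induced gene, was at 519.8, 1118, 229.5 and 1817 TPM, in the order of Eig71Eh. Of 18 measured salivary gland and prepupal genes 6 had a 4-fold range (33.3% against 18.5%), the median range was 1.60 against 0.62, and 0 kept it with pool 3 left out. Sgs3, a larval glue protein, was at 5.95, 4.48, 12.8 and 6.82 TPM.

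Fat body genes spread less by count than by amount. Of 37 measured members 5 had a range of at least 4-fold (13.5% against 18.5% of measured genes), the median range was 0.90 against 0.62, and 2 kept it with pool 1 left out. The summed level was 13147, 25204, 16519 and 28664 TPM, higher in pools 2 and 4 than in pools 1 and 3. Abundant genes weigh most in this sum, and the members at large did not share the order in pool 4. Scores were -0.22, 0.26, -0.11 and 0.06 in pools 1 to 4. Pool 2 was the highest in 14 of the 37 and pool 4 in 9, against 14.8% and 21.4% of measured genes. Pool 4 was the lowest in 14, against 30.4%. Fbp1, a receptor through which the fat body takes up storage proteins, was at 2723, 6681, 1153 and 9086 TPM. Fbp2, a second fat body protein, was at 389, 2205, 1360.4 and 4718 TPM, and Lsp1gamma, a storage protein subunit, at 571, 1408, 713 and 1249 TPM. Obp99b was at 887, 3629, 2195 and 4267 TPM. Pools 2 and 4 were the high pools in all 4 genes, while pool 3 was the low pool in Fbp1 and pool 1 in the other 3. Lsp2, another storage protein, was at 2130.3, 3579.7, 3996 and 3258 TPM, with pool 1 alone low, and Rfabg was nearly level.

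Several genes for cuticle colour were high in pool 4. y, needed for black pigment, was at 1.58, 1.55, 2.47 and 119 TPM, and only pool 4 was above 3 TPM. ple, tyrosine hydroxylase, was at 20.8, 159, 8.27 and 342 TPM, and e, which couples dopamine to beta-alanine, at 21.8, 24.1, 1.98 and 44.6 TPM. Pool 4 was the highest of all 3 genes, and pool 3 the lowest of ple and e. Of 35 measured genes of this list 5 had a 4-fold range (14.3% against 18.5%), with a median range of 0.84 against 0.62, and 3 kept it with pool 3 or pool 4 left out. laccase2, the oxidase of cuticle hardening, was at 114, 134, 85.6 and 104 TPM and Ddc, dopa decarboxylase, at 8.64, 7.41, 10.9 and 8.52 TPM, with no wide range. Of 40 measured chitin genes 6 had a 4-fold range (15.0% against 18.5%). Cht8, a chitinase, was at 73.7, 191, 167 and 17.2 TPM, with pool 4 low, and kkv, the chitin synthase, at 79.8, 146, 112 and 84.2 TPM.

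Genes high in pool 4 alone included unnamed ones of very wide range. CG42449 was at 0.23, 0.38, 0.19 and 247 TPM, CG42367 at 0.60, 0.38, 1.03 and 245 TPM, and CG15545 at 2.58, 4.76, 7.78 and 488 TPM. CG13358, at 2.46, 2.34, 1.28 and 253.8 TPM, and CG12003, at 2.16, 1.31, 0.87 and 184 TPM, had the same shape. In all 5, pools 1 to 3 lay below 8 TPM and pool 4 above 180 TPM.

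Where pool 1 lay apart from the rest, it did so mainly by low values, in 79 genes against 33. Without that margin it held the highest value in 42.5% of measured genes, a share that moves with the scaling. CG13720 was at 0.17, 46.2, 104 and 43.0 TPM, and Obp73a, of the odorant-binding protein family, at 0.18, 33.9, 75.5 and 9.25 TPM. CG42331 was at 10.7, 329, 293 and 155 TPM. In each, pool 1 lay more than 10-fold below the next pool. On the high side its margins were smaller: CG42681 was at 18.96, 4.6, 2.23 and 3.56 TPM and CG18673 at 75.02, 21.8, 15.7 and 19.5 TPM.

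Antimicrobial peptides were high in pools 2 and 3. Of 29 measured peptides 19 had a range of at least 4-fold (65.5% against 18.5% of measured genes), with a median range of 2.73 against 0.62. Scores were -1.08, 1.00, 0.82 and -0.74 in pools 1 to 4. Pool 1 was the lowest in 16 of 29 and pool 4 in 10, against 9.81% and 30.4% of measured genes. Of the 19, pools 2 and 3 lay above the other pools in 9, and pool 2 alone in 4. IM3, an immune-induced peptide of the hemolymph, was at 0.73, 103, 89.6 and 0.72 TPM, and IM14 was listed at 0 in pools 1 and 4 and stood at 21.3 and 26.7 TPM in pools 2 and 3. AttB, an attacin, was at 1.68, 86.9, 71.2 and 6.43 TPM. Over these 3 genes the highest value in pools 1 and 4 was 6.43 TPM, and the lowest in pools 2 and 3 was 21.3 TPM.

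The cecropins, which lie side by side on chromosome arm 3R, were high in pool 2 only. CecA1 was at 7.71, 137, 9.02 and 18.3 TPM, CecB at 12.9, 137, 19.6 and 5.47 TPM, and CecC at 22.4, 294, 43.2 and 11.2 TPM. Drs, the antifungal peptide drosomycin, was at 97.7, 552, 653 and 229.8 TPM, with pool 1 lowest. Its relatives differed from it: Drsl3 was at 77.8, 715, 2257 and 1023 TPM and Drsl5 at 1889, 1693, 442 and 1455 TPM, with pool 3 the highest in the first and the lowest in the second. Dpt, diptericin, was nearly level at 37, 39.95, 48.3 and 47.5 TPM.

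The recognition and signalling genes of immunity moved little by comparison. Of 47 measured 2 had a range of at least 4-fold (4.26% against 18.5%), namely PGRP-SB2, described above, and pirk, an inhibitor of the Imd pathway, at 2.27, 15.7, 6.03 and 5.41 TPM. The median range was 0.60 against 0.62, and 1 of the 2 kept its range with pool 1 or pool 2 left out. Rel, the transcription factor of the Imd pathway, was at 25.96, 38.0, 35.7 and 39.1 TPM, and PGRP-SA, a receptor of the Toll pathway, at 34.7, 65.2, 63.5 and 61.3 TPM. Pool 1 was the lowest in both. Of 25 measured blood cell genes 0 had a 4-fold range and 7 a 2-fold range.

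The list of small heat shock genes and Turandot peptides, induced by many stresses, had most of its highest values in pool 2. Of 23 measured members 17 were highest in pool 2, against 14.8% of measured genes, and 14 lowest in pool 3, against 20.7%. Pool 2 lay apart on the high side in 1 of the 23. The high members named next are small heat shock genes. Hsp67Bc was at 361, 1044, 231 and 375 TPM, Hsp26 at 3344, 7327, 2163 and 4078 TPM, and Hsp22 at 1643, 2894, 824 and 1694 TPM, each with the same order of pools. The median range was 1.42 against 0.62, and 2 members, Hsp67Bc and TotF, had a range of at least 4-fold (8.70% against 18.5%). TotF, a Turandot gene, was at 8.54, 13.3, 43.7 and 0.52 TPM, with pool 3 high. With pool 2 or pool 3 left out, 1 of the 2 kept its range.

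**Figure D5:**
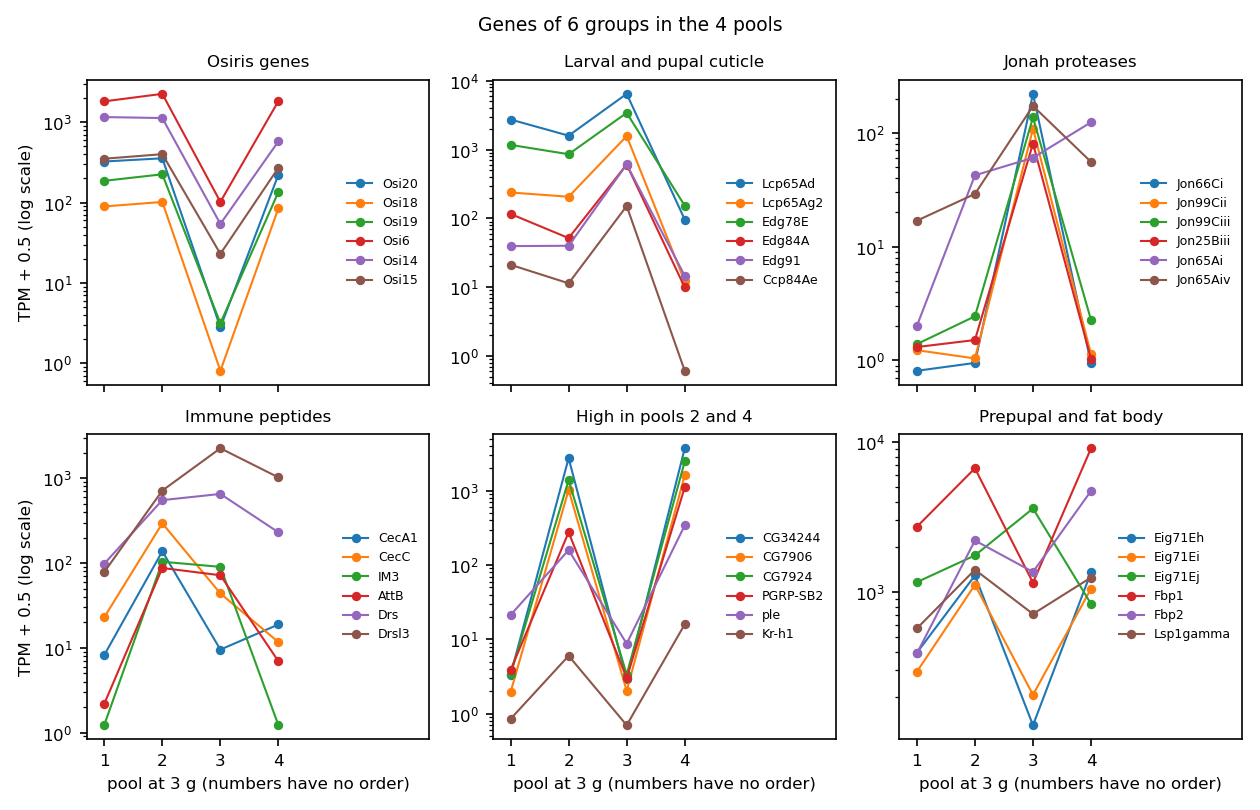
Levels of genes from 6 groups in the 4 pools, as TPM + 0.5 on a log scale (y axis), with pool number on the x axis. Lines join the values of 1 gene and stand for no order. The genes shown were picked and do not stand for all members of their groups. The Osiris genes shown drop in pool 3, and the cuticle genes shown peak there and drop in pool 4. Osi1 and Osi12, which were high in pool 3, and Cpr66Cb, which was high in pool 4, are not shown. Several Jonah proteases are near 0 outside pool 3. The genes of the fifth panel are high in pools 2 and 4 and low in pools 1 and 3.

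Groups with basic functions set the lower bound of the spread. Of 84 measured genes of the cytosolic ribosome 1 had a 4-fold range, the germline copy RpS28a, and the median range was 0.28 against 0.62. Their summed level was 172102, 192612, 169117 and 160025 TPM. Pool 2 was the highest in 78 of the 84 and in 79 after median-of-ratios rescaling, but in 9 after quantile normalization, so this order depends on the scaling. The 25 measured nuclear genes of the respiratory chain held 0 with a 2-fold range, and the 13 genes of the mitochondrial genome had a median range of 0.16. RpL32 was at 2223, 2408, 2102 and 1976 TPM and Act5C at 2771, 3168, 2925 and 2581 TPM. Gapdh2 was at 333, 462, 306 and 448 TPM and alphaTub84B at 4448, 4231, 3296 and 3945 TPM. Among genes averaging 50 TPM or more, the smallest ranges were 0.03 for CG13796, Alg-2 and eIF-1A and 0.04 for CG18081 and SC35. eIF-1A was at 399.5, 404, 408 and 403 TPM.

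Neuronal and cell cycle genes differed by small amounts in one direction. Pool 1 was the highest in 26 of 28 neuronal genes, against 42.5% of measured genes, with a score of 0.33, and 0 had a 4-fold range. After quantile normalization pool 2 was the highest in 19 of them. nSyb, a synaptic vesicle protein, was at 60.3, 39.8, 32.8 and 36.3 TPM. Pool 3 was the highest in 39 of 45 replication and cell cycle genes, against 21.3%, with a score of 0.45, in 38 after median-of-ratios rescaling and in 27 after quantile normalization. RnrL, the large subunit of ribonucleotide reductase, was at 13.1, 15.4, 26.02 and 11.0 TPM. Neither list held a member with a 4-fold range. In muscle genes 1 of 37 had one, TpnC47D, a troponin C, at 1.94, 6.90, 3.22 and 9.87 TPM. Act88F, the actin of flight muscle, was at 743, 453, 247 and 489 TPM, with pool 1 high and pool 3 low.

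In the remaining lists a 4-fold range, found in 18.5% of measured genes, occurred in 9 of 62 cytochrome P450 genes, 13 of 50 odorant-binding and chemosensory genes, 11 of 46 histone genes, 2 of 26 photoreceptor genes (7.69%), 2 of 12 clock genes, 2 of 17 sex determination genes, 2 of 7 egg shell genes and 3 of 8 seminal fluid genes. With a pool left out, these counts fell by over 1.5 times for P450 genes (5 without pool 3, 4 without pool 4), chemosensory genes (8 without pool 2) and histones (2 without pool 1 or pool 3), and each count of 2 or 3 fell to 1 or 0 with at least 1 pool left out. Of the 11 histone genes 9 had pool 1 low. These 9 were copies of His2B with identical values, 0.59, 2.12, 3.96 and 3.34 TPM, so they do not count as separate observations. Obp99d was at 6.06, 131, 33.3 and 3.84 TPM, with pools 2 and 3 high. Clk, a clock transcription factor, was at 10.6, 1.78, 8.89 and 11.0 TPM, low in pool 2, while per, another clock gene, was at 2.04, 6.69, 1.70 and 1.93 TPM, high in pool 2. ninaD, a carotenoid receptor, was at 8.05, 24.4, 2.36 and 4.33 TPM, with pool 2 high.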

How the data were processed

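Per the labels, RNA was selected by its poly(A) tail from pools of 4 whole pupae, made into TruSeq libraries and sequenced from both ends, 100 bp each, in 1 HiSeq-2000 lane. Per the submitters' processing notes, the tools, with roles left out, were eXpress 1.5.1, Bowtie2 2.1.0, Trimmomatic 0.30, DESeq and CASAVA. The build, annotation and strand setting were not given in the sources used here. The deposited values are whole numbers per gene, treated as a score and divided by 100 to give TPM. That reading rests on the table's name and on each library summing to 1000000. Whether the authors scaled the values further is not stated, and depth is unknown.

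Genes averaging 1 TPM or more in the 4 pools were analysed as log2(TPM + 0.5) in Python 3.11.15 with numpy 2.4.6, pandas 2.3.3 and matplotlib 3.10.9. Gene names and neighbours came from the RefSeq table of Release 6 plus ISO1 MT: 11946 names equalled a current symbol, 1856 matched a synonym or identifier and 116 did not match. Identical values in all pools joined 154 genes into 61 sets. The measures were run on simulated data in which a single pool was moved far beyond an even noise. That checks the calculation only, not how the measures behave on the spread of real pools. No test across groups was made, since 1 group is described. The members and lists were chosen with earlier results of these data known. The genes named were the 30 of widest range (mean of at least 5 TPM), the 6 of largest gap per pool and direction, the 4 of widest range per list, 4 reference genes and the 5 of smallest range. Others were chosen after their values were seen. Other pseudocounts, filters and scalings were tried, and each pool was left out in turn.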

Additional observations from a re-analysis of the deposited data

Results flagged for a closer look

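For groups of 4 pools, a value was picked out when its gap to the nearest other pool, taken as a part of the whole range, exceeded Dixon's critical value for 4 values, a bound that chance passes in about 1 in 20 groups. Of the 32 list scores 3 passed it: male germline genes (0.935, pool 2 low), replication and cell cycle genes (0.896, pool 3 high) and ecdysone-response genes (0.864, pool 3 low). Of all 11972 measured genes 2231 (18.6%) passed it. Of 135 genes named for the lists 27 passed it, a share near that of all genes, with the far value in pool 2 in 19 genes, in pool 3 in 7, in pool 4 in 1 and in pool 1 in 0.

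In pool 2 the germline genes swif (0.881), orb (0.853) and bgcn (0.876) were far below the other pools. So were copies of general genes: RpS28a (0.897), RpS10a (0.848), RpL37b (0.906), RpS19b (0.885), Vha36-2 (0.974), Vha68-3 (0.931), Vha14-2 (0.865), Pglym87 (0.958), Hsp60B (0.945), Hsp60C (0.907), Hsp60D (0.964) and Hsc70-2 (0.959). The cell cycle gene pim (0.845) and the clock gene Clk (0.874) were low in pool 2 as well, and per (0.879) and Pgi (0.872) were high there.

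In pool 3 the far values were low for Osi18 (0.963), Osi19 (0.882) and Osi20 (0.904) and high for Jon66Ci (0.972), Jon99Cii (0.964), Jon99Ciii (0.877) and Jon25Biii (0.912). In pool 4 y was high (0.909). Genes named only for their gap were not examined this way, since the gap had chosen them. The genes given here for pools 3 and 4 had been named for their gap as well as for their list. Nothing is read from their ratios.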

How the results depend on the processing

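The number of genes with a 4-fold range was 2216, and ranged from 635 without pool 2 to 2060 with another pool left out. It stayed within 1.5 times under the other settings, from 1502 after quantile normalization to 2475 with a pseudocount of 0.1 TPM. With 1 pool left out the genes apart on the high side ranged from 57 to 90 (pool 1), 75 to 176 (pool 2), 219 to 252 (pool 3) and 130 to 284 (pool 4), and on the low side from 114 to 265 (pool 1), 2018 to 2060 (pool 2), 183 to 345 (pool 3) and 190 to 230 (pool 4), since 3 pools set a smaller range to exceed. A minimum mean of 5 TPM left 10211 of the 11972 genes. It gave 16 and 51 genes for pool 1 high and low, in place of 33 and 79. Pool 3 high held 83 in place of 125, and pool 4 high 51 in place of 93. In the main setting the median gene of these 4 sets had a mean of 4.98, 16.2, 8.00 and 6.37 TPM. Pool 1 high held 15 after quantile normalization. Pool 2 high held 50 after median-of-ratios rescaling and 100 after quantile normalization; the cause was not tested. After quantile normalization 21 of 32 lists kept their highest pool. Of 768 list scores 53 moved by 1 SD or more under other settings. With a pool left out, 30 to 31 lists kept the highest of the remaining pools, and 1 of 384 scores moved. Leaving out a pool shifts the remaining scores of a list by one amount, which is always below 1 SD. Only genes crossing the filter can change these counts, so they do not measure how stable the scores are. No paired analysis was possible because 1 group is described and no test was made. Only 4 pools of unknown depth limit what the ranges show, and lists with small scores depend on the scaling.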
